A study of Mus musculus with 3 samples.

Results

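The transcripts of 10 genes of lysosomal proteolysis were examined: the aspartic protease gene Ctsd, the serine carboxypeptidase gene Ctsa, the cysteine cathepsin genes Ctss, Ctsl, Ctsb, Ctsz, Ctsh and Ctsc, the legumain gene Lgmn, and Cst3, the gene of the protease inhibitor cystatin C. They were chosen by gene symbol, and all 10 of the 10 were found among the 24411 genes of the deposited tables. RNA sequencing had been carried out on microglia, the brain's resident macrophages, of C57BL/6J mice labelled as aged 6 to 8 weeks. All 3 libraries, replicates 1 to 3, belonged to 1 group with the genotype Mir137loxP/loxP;Tmem119-CreERT2 (cKO) and the treatment Pu.1 inhibitor. The series text placed tamoxifen injections on 7 days at 7 to 8 weeks of age and gave 4 mice. It did not tie mice to libraries, so the spread between libraries may be technical. The recombinase acts where Tmem119, a gene of microglia, is active. The sources used here do not name the inhibitor or state its dose and route. Knockout cells free of inhibitor and cells with Mir137 intact are not analysed here. Every value is therefore a level within the combined condition, and no effect of deletion or inhibitor was estimated.

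Cathepsins and legumain are made as inactive precursors, sorted to acidic endosomes and lysosomes, and activated there by cleavage. In macrophages they degrade phagocytosed protein and trim antigens and their chaperones, and legumain can process several of the cathepsins. Cystatin C is a secreted inhibitor that binds papain-like cysteine cathepsins in their active site and, at a separate surface, legumain.

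Depth was similar among the libraries, with 17180404, 15710750 and 16356125 estimated counts in replicates 1, 2 and 3. On the CPM scale, in which counts are divided by the library's total, 3 counts correspond to 0.175, 0.191 and 0.183 CPM. That is the upper limit for a gene without counts, for counting error only. The tissue label was checked on microglial markers. P2ry12, Tmem119, Cx3cr1, Csf1r, Sall1, Siglech, Gpr34, Fcrls and Trem2 each averaged 100 FPKM (fragments scaled for transcript length and library total) or more. Among them, Csf1r was at 2370.2 ± 54.3, P2ry12 at 1608 ± 7.79 and Sall1, the lowest, at 134 ± 5.88 FPKM (SD, n = 3). Markers of other cells were present in the same libraries. Summed FPKM was 13783, 15250.4 and 13805 for 10 neutrophil markers in replicates 1, 2 and 3, 6244, 6544 and 7128 for 6 choroid plexus and ependymal markers, and 218, 226 and 202 for 8 astrocyte markers. In estimated counts, not divided by length, these lists took 0.32 ± 0.01, 0.83 ± 0.05 and 0.084 ± 0.005% of the library (SD, n = 3). All genes of these 3 lists were detected, that is at 1 FPKM or more in every library, as were all 8 monocyte, 9 border macrophage, 7 endothelial and 7 oligodendrocyte markers. Of 7 neuron and 7 lymphocyte markers, 3 and 2 were detected, and the neuron marker Nefl had no count. In bulk RNA, fewer cells of a type and less RNA per cell cannot be told apart.

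All 10 protease and inhibitor genes were abundant. Each had a mean of at least 100 FPKM, a level reached by 3.12% of all genes in the tables. Detection was reached by 47.8% of all genes. The median of log2(FPKM + 1) over the 10 genes was 9.38 ± 0.06 (SD, n = 3), against 0.95 ± 0.02 over all genes and 3.82 over the 11680 detected genes. Together the 10 genes took 3.20% (95% Wilson interval 3.19 to 3.20), 3.39% (3.39 to 3.40) and 3.13% (3.12 to 3.13) of the estimated counts in replicates 1, 2 and 3, a mean of 3.24 ± 0.14% (SD, n = 3). The share was highest in replicate 2. In summed FPKM, which counts short transcripts more heavily, their share was 5.77 ± 0.15% (SD, n = 3).

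Cst3 stood first of all 24411 genes in FPKM. Cst3 (GRCm38 chromosome 2, 148871722 to 148875692, minus strand, protein coding) had 15939.7, 17565 and 15233 FPKM in replicates 1, 2 and 3, a mean of 16246 ± 1196 FPKM (SD, n = 3, as for all means of this form). Its counts were 126445, 126747 and 115023. The next gene below it, S100a8, which encodes a calcium-binding protein of neutrophils, had 8435, 9453 and 8512 FPKM, so the lowest Cst3 library lay above the highest S100a8 library. Cst3 is also made by astrocytes and choroid plexus, whose marker sums are given above. The part of those cells in its level was not tested, nor that of the other cells with detected markers in the protease levels. In CPM, without division by length, Cst3 was at rank 4, with 7487 ± 540.2 CPM after scaling by the trimmed mean of M values (TMM, a between-library normalisation). Its effective length, the length over which the authors' FPKM spreads the counts, was 461 nt, the shortest of the 10 genes.

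Ctsd, which encodes the main lysosomal aspartic protease, was the most abundant protease transcript. Ctsd (chromosome 7, 142375911 to 142388038, minus strand) had 5866, 6193 and 5745 FPKM in replicates 1, 2 and 3, a mean of 5935 ± 232 FPKM and the fifth highest level of all genes. In CPM it was at rank 2, with 9928 ± 394 CPM. The annotation places exons of Gm49369 on the same strand over 808 bases of Ctsd exons. That gene has no row in the tables, so its reads could not be separated from those of Ctsd. Ctsa encodes protective protein/cathepsin A, a serine carboxypeptidase that stabilises lysosomal beta-galactosidase and neuraminidase 1. Ctsa (chromosome 2, 164832873 to 164841032, plus strand) had 409, 444 and 401 FPKM, a mean of 418 ± 22.5 FPKM. Its exons share 495 bases with Pltp and 324 with Neurl2, both on the opposite strand. Pltp was at 234 ± 15.3 and Neurl2 at 6.01 ± 1.52 FPKM. The counts of Ctsa were not whole (21256.19, 21086.79 and 19850.79).

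Among the cysteine endopeptidases, Ctss was far above Ctsl. Ctss encodes cathepsin S, which stays active at neutral pH and trims the invariant chain of class II antigen presentation in macrophages and B cells. Ctss (chromosome 3, 95526786 to 95556403, plus strand) had 3789, 3989 and 3722 FPKM, a mean of 3833 ± 139 FPKM and the eleventh highest level of all genes. Ctsl encodes cathepsin L, a broadly expressed endopeptidase. Ctsl (chromosome 13, 64359337 to 64370890, minus strand) had 378, 402 and 378 FPKM, a mean of 386 ± 13.7 FPKM. The FPKM of Ctss was 9.94 ± 0.08 times that of Ctsl within a library (SD, n = 3). The antisense gene Gm47123 covers 1742 bases of Ctsl exons. The processed pseudogene Gm49230 shares 395 exon bases with Ctsl on the same strand. Neither has a row in the tables and no source used here states strandedness, so their reads cannot be told apart from those of Ctsl.

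Lgmn, the asparaginyl endopeptidase gene, was the second most abundant cysteine protease transcript. Lgmn (chromosome 12, 102394084 to 102439813, minus strand) had 2619, 2778 and 2606 FPKM, a mean of 2668 ± 95.8 FPKM and rank 16 of all genes. Ctss and Lgmn together made up 74.8, 74.9 and 74.9% of the FPKM summed over the 7 cysteine proteases in replicates 1, 2 and 3. Their combined share thus varied little between the libraries (SD 0.04 percentage points, n = 3).

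The cathepsins with carboxypeptidase activity were at intermediate levels. Ctsb encodes cathepsin B, an endopeptidase that also removes dipeptides from the carboxyl end. Ctsb (chromosome 14, 63122462 to 63145923, plus strand) had 721, 739 and 713 FPKM, a mean of 725 ± 13.1 FPKM. It has the longest effective length of the 10 genes, 4462 nt, and it ranked 95 of all genes per length but 17 by CPM. Its exons share 774 bases with Fdft1 on the other strand, which was at 6.43 ± 0.35 FPKM. The counts of Ctsb were not whole either (55312.88, 51781.38 and 52061.95). Ctsz encodes cathepsin Z, also called cathepsin X, which removes single residues from the carboxyl end. Ctsz (chromosome 2, 174427493 to 174439039, minus strand) had 601, 658 and 578 FPKM, a mean of 612 ± 40.9 FPKM.

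The cathepsins with aminopeptidase or dipeptidyl peptidase activity were lowest. Ctsh, the gene of the aminopeptidase cathepsin H (chromosome 9, 90054152 to 90076089, plus strand), had 280.0, 297 and 280.4 FPKM, a mean of 286 ± 9.60 FPKM. Ctsc encodes cathepsin C or dipeptidyl peptidase 1, which activates the granule serine proteases of neutrophils and cytotoxic lymphocytes. Ctsc (chromosome 7, 88278085 to 88310888, plus strand) had 174, 171 and 176 FPKM, a mean of 174 ± 2.69 FPKM at rank 434. In FPKM, Ctsc was the member with the smallest spread between libraries, 1.55% of its mean, and Cst3 the one with the largest, 7.36%. This ranking did not hold in TPM, that is FPKM scaled to the same sum in each library. There Ctsc was at 321 ± 14.5, Cst3 at 29934 ± 1285 and Ctsd at 10943 ± 94.5 TPM.

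**Figure D1:**
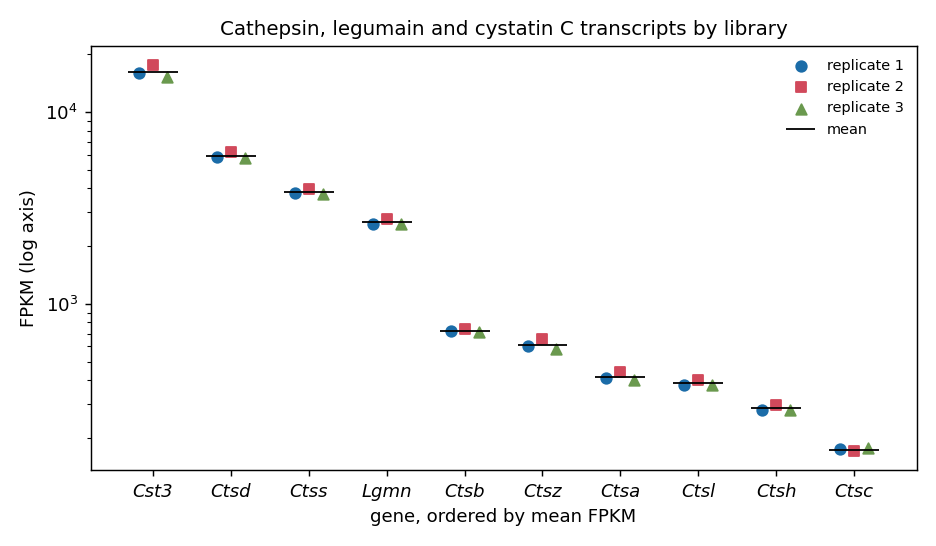
FPKM of the 10 genes (log axis) in each of the 3 libraries, with the mean as a line, ordered by mean. Cst3 lies at 15233 to 17565 FPKM and Ctsc at 171 to 176 FPKM, and the widest gap separates Cst3, Ctsd, Ctss and Lgmn from the other 6 genes.

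The order by FPKM was Cst3, Ctsd, Ctss, Lgmn, Ctsb, Ctsz, Ctsa, Ctsl, Ctsh and Ctsc, and it was the same in all 3 libraries. Of the 9 neighbouring pairs, 8 had library values that did not overlap. Ctsa and Ctsl overlapped, since the lowest Ctsa library was at 401.4 FPKM and the highest Ctsl library at 401.6 FPKM, and Ctsa exceeded Ctsl by 1.08 ± 0.02 times within a library (SD, n = 3). The widest step was from Lgmn to Ctsb, 3.68 ± 0.07 times, followed by Cst3 over Ctsd, 2.73 ± 0.09 times. Exact two-sided sign-flip permutation tests of the 9 within-library log2 differences each gave p = 0.25 (adjusted p = 0.25 over the 9 pairs, the higher gene higher in 3 of 3 libraries). That is the smallest p 3 libraries allow, so no pair could pass 0.05.

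The order depended on the scale. In TMM-normalised CPM it was Ctsd, Cst3, Lgmn, Ctss, Ctsb, Ctsa, Ctsz, Ctsl, Ctsh and Ctsc. Ctsd then exceeded Cst3 by 1.33 ± 0.04 times, and Ctsa exceeded Ctsz by 1.86 ± 0.03 times (SD, n = 3). Lgmn over Ctss (1.03 ± 0.01), Ctsz over Ctsl (1.04 ± 0.03) and Ctsh over Ctsc (1.01 ± 0.05) overlapped between libraries on that scale. Comparisons of level between genes are therefore given per length.

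**Figure D2:**
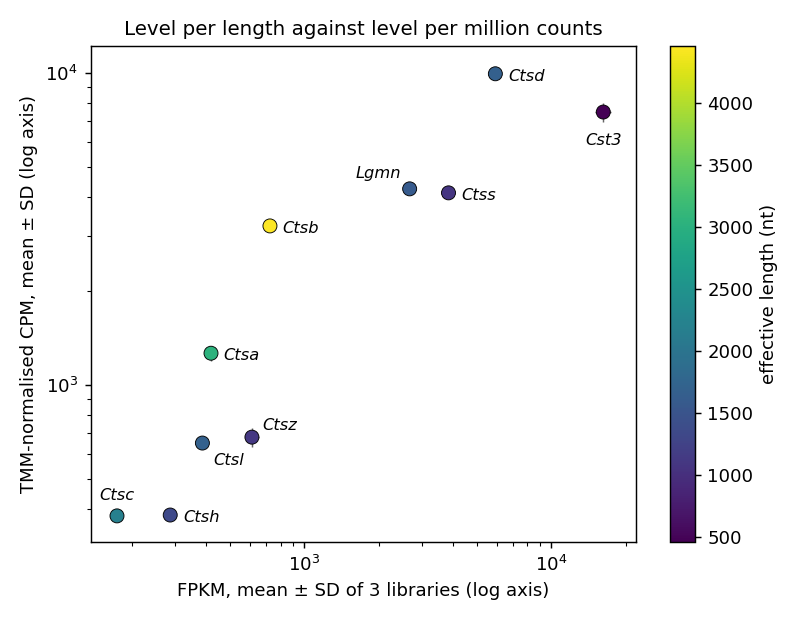
Mean level per length (FPKM, horizontal) against mean TMM-normalised CPM (vertical) of the 10 genes on log axes, with SD bars over 3 libraries and colour for effective length. Cst3 with 461 nt is first in FPKM and below Ctsd in CPM, while Ctsb with 4462 nt lies above the other genes of similar FPKM.

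The inhibitor transcript outnumbered the transcripts of the cysteine proteases on the per-length scale. The 7 cysteine protease genes summed to 8563, 9033 and 8454 FPKM in replicates 1, 2 and 3, and Cst3 was 1.86, 1.94 and 1.80 times that sum. The mean ratio was 1.87 ± 0.07 (SD, n = 3). In estimated counts, not divided by length, the same ratio was 0.55 ± 0.02, below 1, so its direction depends on the unit. These are transcript ratios, and protein was not measured.

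The libraries were then compared for spread. Homogeneity of the 3 counts of a gene, given library size, was tested by chi-square. At p values adjusted over 13246 genes by the Benjamini-Hochberg method, the test called 9 of the 10 genes different between libraries beyond counting error, against 41.4% of all genes tested and 74.8% of those with a mean of at least 100 FPKM. Counting error is very small at these depths, and when the dispersion common to all genes was added to it the test called 0 of the 10, against 1.4% of all genes. The biological coefficient of variation, edgeR's estimate of spread beyond counting, was 0.048 to 0.053 for the 10 genes, with a median of 0.050. The median was 0.052 over genes with a mean of at least 100 FPKM and 0.087 over all genes tested. With 3 libraries, edgeR draws the estimate of each gene towards that of genes of similar level. The nearness of the 10 genes to 0.052 therefore says little about their own spread. The dispersion common to all genes, estimated from the same 3 libraries, corresponds to a coefficient of 0.083, above the median of genes of high level. The call of 0 of the 10 with it added therefore says little about these genes. All these values compare libraries of 1 group, not conditions.

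In TMM-normalised CPM, the 9 called genes were highest in replicate 2 and lowest in replicate 3. Cst3 had 7360.4, 8079 and 7022 TMM-normalised CPM in replicates 1, 2 and 3 (adjusted p = 9.80e-268), Ctsd had 9819, 10366 and 9600.0 (adjusted p = 2.65e-106), and Ctsz had 669, 731 and 643 (adjusted p = 6.41e-20). Highest in replicate 2 were 35.9% of all genes tested and 63% of those with a mean of at least 100 FPKM. Lowest in replicate 3 were 34.1% of all genes tested and 56.2% of those with a mean of at least 100 FPKM. In FPKM the same 9 of the 10 genes were highest in replicate 2, against 35.8% of all genes. Their CPM ratio of replicate 2 to the mean of the other libraries was from 1.03 for Ctsb to 1.12 for Cst3. Ctsc was the exception, with 382, 375 and 386 CPM and a ratio of 0.98 (adjusted p = 0.37). Without replicate 2, the test called 4 of the 10 (Cst3, Ctsd, Ctss and Ctsz) and 2498 of all genes. With all 3 libraries it called 9 of the 10 and 5485 of all genes.

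Scaling and transcript length moved with this pattern. In TPM, where each library sums to the same total, 7 of the 10 genes were highest in replicate 2, against 23.5% of all genes. For genes with a mean of at least 100 FPKM, this share was computed in CPM only. Ctsb and Ctsh were highest in replicate 3 in TPM together with Ctsc, and the TPM ratio was 1.07 for Cst3, 1.06 for Ctsz, 1.04 for Ctsa and 1.01 for Ctsd. The lowest TPM was in replicate 2 for Ctsb and Ctsc and in replicate 1 for Ctsl, Ctsh and Lgmn. The median ratio over all genes tested was 1.00 in CPM and 0.95 in TPM, and all 10 but Ctsc (0.93 in TPM) lay above that TPM median. Among genes with a mean of at least 100 FPKM, the median CPM ratio was 1.13 for 282 genes with an effective length under 1000 nt, 1.05 for 231 genes of 1000 to 2000 nt and 0.99 for 249 genes over 2000 nt. Of these classes, 85.8, 68 and 32.5% were highest in replicate 2. Of the 10 genes, 8 lay above the median of their length class, among them Ctsz, with 1112 nt and a ratio of 1.12, and Ctsa, with 3025 nt and 1.10. The exceptions were Cst3, with 461 nt and 1.12, just below its class median, and Ctsc, with 2191 nt. Of the 9 marker lists of other cells, 7 had their highest FPKM sum in replicate 2, as had the FPKM of the whole library (536963, 560743 and 529085 in replicates 1, 2 and 3). The choroid plexus sum was highest in replicate 3. The part of length and of other cells in the pattern was not tested.

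**Figure D3:**
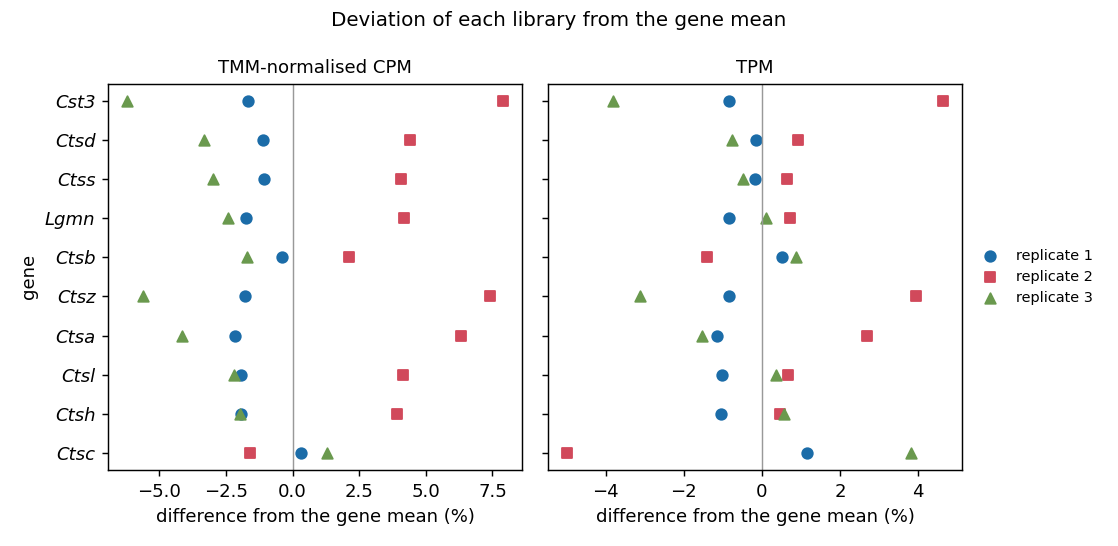
Difference of each library from the gene's mean, in percent, for TMM-normalised CPM (left) and TPM (right). Replicate 2 is the highest point for 9 of 10 genes at left and 7 of 10 at right. It is the lowest point for Ctsc on both scales and for Ctsb at right.

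**Figure D4:**
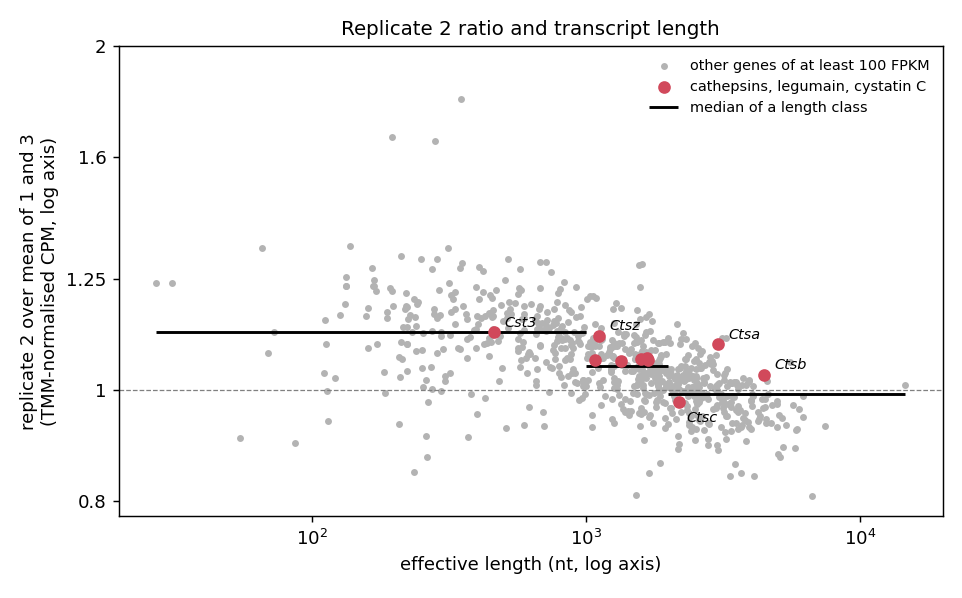
Ratio of replicate 2 to the mean of replicates 1 and 3 in TMM-normalised CPM (log axis) against effective length (log axis) for 762 genes with a mean of at least 100 FPKM, the 10 genes in red and the median of each length class as a line. The medians step down through 1.13, 1.05 and 0.99 with length, and 8 of the 10 genes lie above their class, all but Cst3 and Ctsc.

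The base sequences around the transcription starts were examined because the treatment label names Pu.1, a transcription factor, and because lysosomal genes share a known element. The binding consensus of Pu.1, GAGGAAGT, and the E-box GTCACGTG, which TFEB and related factors bind in promoters of lysosomal genes, were searched on both strands in windows from 250 bases before to 50 bases after each start of RefSeq's GRCm38.p6 annotation. Of the 10 genes, 8 (all but Ctsb and Ctsh) matched 10 such windows. The E-box GTCACGTG, which contains the shorter CACGTG, was found in windows of 3 genes, Ctsd, Ctsa and Lgmn, and in 2.25% of all 32851 windows. CACGTG alone was also in that of Ctsl, and in 7.15% of all windows. GAGGAAGT was found in windows of 2 genes, Ctss and Ctsc, and in 3.2% of all. Its core GGAA was in all 10 windows and in 96% of all windows. These are matches of letters, not measured binding.
The stretches of 30 bases below, 5′ to 3′ in the direction of the gene, show the matches in capitals, with the letters of the reverse strand where the match lies there.
Ctsd, chr7:142387907-142387936, minus strand: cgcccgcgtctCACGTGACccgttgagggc
Ctsd, chr7:142388048-142388077, minus strand: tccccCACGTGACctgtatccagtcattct
Ctsa, chr2:164833757-164833786, plus strand: ctGTCACGTGatgcagatgctCACGTGACc
Lgmn, chr12:102439125-102439154, minus strand: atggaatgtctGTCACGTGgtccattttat
Ctsl, chr13:64370739-64370768, minus strand: ggcgttagaagcCACGTGctgatctaaatt
Ctss, chr3:95526773-95526802, plus strand: aatgaaagttcACTTCCTCattgtggatgc
The matches in Ctsd began at -98 and -245 from its start, those in Ctsa at -14 and 6 from its second start, that in Lgmn at -51 from its second start and that in Ctss at -2, across the start itself. Ctsc was the only one of the 10 genes not highest in replicate 2 in CPM, a comparison chosen after the values were seen. Ctss, with the same letters, was highest in replicate 2, and a link of the letters to this pattern was not tested. For Ctsc, the 250 bases before the start are given in full, with the match, from -151 to -144, in capitals.
Ctsc, chr7:88277835-88278084, plus strand: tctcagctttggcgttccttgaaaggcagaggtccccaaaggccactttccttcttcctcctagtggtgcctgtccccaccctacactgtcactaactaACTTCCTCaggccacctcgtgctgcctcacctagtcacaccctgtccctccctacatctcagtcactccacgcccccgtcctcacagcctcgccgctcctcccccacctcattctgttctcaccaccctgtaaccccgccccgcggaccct
Ctss and Ctsc, which hold the Pu.1 letters, were thus at 3833 and 174 FPKM, and Ctsd, Lgmn and Ctsa, with the 8-letter E-box, at 5935, 2668 and 418 FPKM. Cst3, at 16246 FPKM, Ctsz, at 612 FPKM, and Ctsl, at 386 FPKM, held neither of these 8-letter elements in their windows. Ctsl held only the shorter CACGTG.

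Other cathepsin genes were low or without counts. Of 15 others in the tables, 4 were detected. Ctsf, which encodes cathepsin F, an endopeptidase related to cathepsin S, had 118, 123 and 113 FPKM, and Ctso, a little-studied cysteine cathepsin gene, 42.0, 44.1 and 41.7 FPKM. The neutrophil cathepsin gene Ctsg had 4.76, 6.11 and 4.91 FPKM, and Ctse, an endosomal aspartic protease gene, 3.67, 2.77 and 2.13 FPKM. Ctsk, whose enzyme resorbs bone in osteoclasts, had 12, 27 and 8 counts. Another 9 genes, the placental cathepsin relatives among them, had no count in any library. Each of the 10 genes examined thus lay above every other cathepsin in mean FPKM, but they were chosen with earlier results of these data known.

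Other cystatins were far below Cst3. Of 17 in the tables, 7 were detected, none with a mean of 100 FPKM, and 7 had no count. Cstb, the gene of the intracellular inhibitor stefin B, was highest at 72.4, 82.7 and 66.3 FPKM, and Cst3 was 221 ± 8.66 times higher within a library (SD, n = 3). The stefin A family genes Stfa2l1 and BC100530 were at 58.8 ± 11.4 and 36.9 ± 2.28 FPKM. They are near-identical copies expressed in neutrophils, so their reads may be split among them. Cst7, the gene of cystatin F, which acts on cathepsin C inside endosomes and lysosomes, had 9.07, 10.1 and 6.76 FPKM. Serpin and other inhibitors were low as well. All 10 were detected, with a median log2(FPKM + 1) of 3.92 ± 0.07, Serpinb6a at 36.2 ± 2.19, Ctla2a at 34.9 ± 1.44, Serpina3n at 23.1 ± 1.66 and Serpina3g lowest at 4.98 ± 0.52 FPKM.

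Other lysosomal peptidases and partners were mostly detected at lower levels. A list of 9 genes held other peptidases and 1 lysosomal thioesterase. All 9 were detected, at a median log2(FPKM + 1) of 5.44 ± 0.09, led by the tripeptidyl peptidase gene Tpp1 at 126 ± 2.49, the thioesterase gene Ppt1 at 112 ± 5.27 and the carboxypeptidase gene Scpep1 at 72.7 ± 1.43 FPKM, with Dpp7 lowest at 12.9 ± 1.52 FPKM. Of the partners of cathepsin A, Glb1 (beta-galactosidase) was at 41.7 ± 1.53 and Neu1 (neuraminidase 1) at 22.04 ± 0.85 FPKM. Ctsa was 10.05 ± 0.84 times Glb1 and 19.0 ± 0.29 times Neu1 within a library (SD, n = 3). Psap, the precursor of the saposins, was at 2101 ± 42.4 FPKM, between Lgmn and Ctsb. Gm2a was at 52.0 ± 2.59 and Galns lowest at 8.71 ± 0.61 FPKM.

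Genes of enzyme sorting and acidification accompanied them. Of 14 sorting genes, 13 were detected, and Grn, whose product progranulin travels to lysosomes and is cut there by cathepsins, had 959, 938 and 905 FPKM. The mannose 6-phosphate receptor genes differed in level, M6pr at 152 ± 2.53 and Igf2r at 1.98 ± 0.43 FPKM. The endocytic receptor gene Lrp1 was at 107 ± 0.95 FPKM and its relative Lrp2 lowest at 0.05 ± 0.03 FPKM. Of 22 genes of lysosomal membrane and proton pump, 21 were detected. The median log2(FPKM + 1) over all 22 was 6.76 ± 0.09, with Lamp1 at 787 ± 6.64, Lamp2 at 474 ± 10.8 and Cd63 at 443 ± 20.9 FPKM, and the pump isoform gene Atp6v0d2 lowest at 0.24 ± 0.05 FPKM. All 5 genes of lysosomal transcription factors were detected, among them Tfe3 at 39.0 ± 1.66, Zkscan3 at 21.9 ± 1.45, Tfeb at 17.4 ± 1.47 and Tfec at 2.73 ± 0.55 FPKM. In CPM, 0 of these 5 were highest in replicate 2, against 35.9% of all genes tested.

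Genes of proteins reported to be processed by these proteases were present over a wide range. All 13 were detected, and 5 averaged 100 FPKM or more. After Psap and Grn came Tlr7, an RNA-sensing receptor cut in endosomes, at 356 ± 10.3 FPKM. Cd74, the invariant chain that cathepsin S trims, had 304, 296 and 285 FPKM. Gzmb, a granule protease that cathepsin C activates, was lowest at 2.43 ± 0.93 FPKM.

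**Figure D5:**
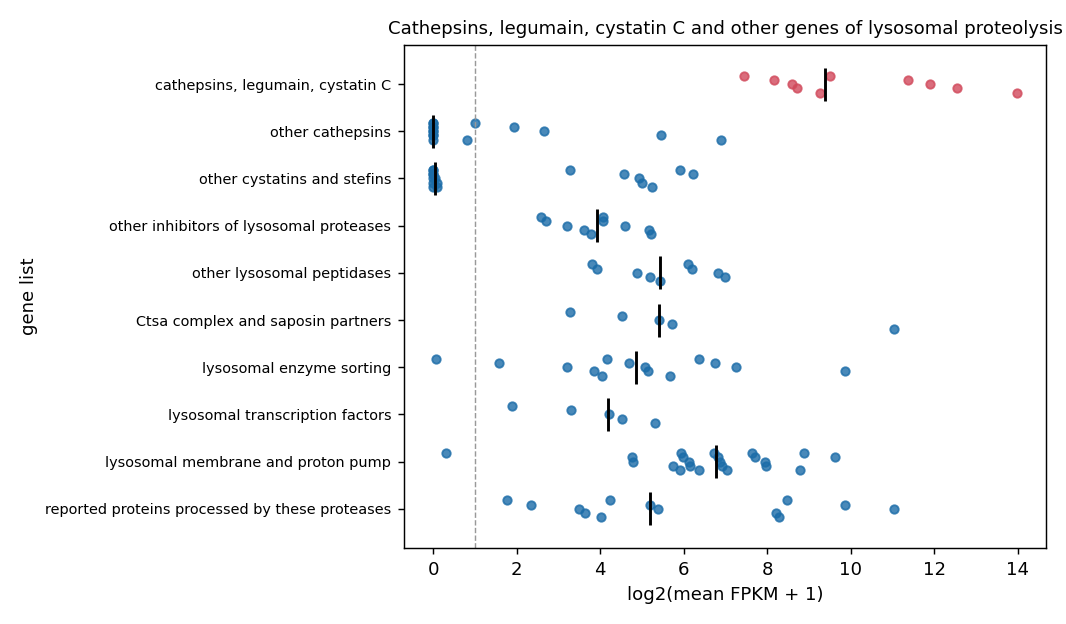
Level of each gene as log2(mean FPKM + 1) by list, with a black line at the mean over libraries of the list's median and a dashed line at 1, which corresponds to 1 FPKM. The cathepsins, legumain and cystatin C have a median of 9.38, above that of the proton pump and membrane genes at 6.76 and of each other list shown.

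The genes nearest to the per-library median of the 10 (658, 697 and 642 FPKM) were sought by Euclidean distance in log2(FPKM + 1) over the 3 libraries. They were Rpl9 (distance 0.07), Rps13 (0.09), Rpl13 (0.09), Ly86 (0.09) and Ly6e (0.10 log2 units). Rpl9, Rps13 and Rpl13 encode ribosomal proteins and Ly86 a partner of an LPS-receptor relative. With 3 libraries of 1 group this nearness describes level more than pattern. At the lower end, Ctsc was next below Vapa, which was at 174 ± 4.56 FPKM, and these differed by less than the spread between libraries.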

How the data were processed

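The authors deposited estimated counts per gene, not normalised between libraries (4.07% of values not whole), and FPKM per gene, each with 1 column per library and 0 columns of other samples. The builds GRCm38 and mm10 and the tools RSEM, DESeq2 and STAR 2.7.9a are named, per the submitters' processing notes. No source used here states settings, annotation or strandedness. The 12 gene names turned into dates were joined by date and not used. Total RNA of 3 libraries was sequenced, per the labels. Whether they came from separate animals is not stated, so p-values measure only the spread between these libraries.

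Effective length was recovered from count, FPKM and library total. TPM is FPKM scaled to the same sum in each library. Counts were rounded, filtered by edgeR 4.0.16 (R 4.3.3) defaults, which left 13246 genes, and scaled by TMM. The homogeneity test used a chi-square distribution and an adjusted p threshold of 0.05, and was tested on simulated data. Coordinates come from GENCODE M21 (GRCm38), 1-based. Intervals and limits cover counting error only. Named genes were the 10 members, the 3 highest and the lowest of each list by mean FPKM, the 5 genes nearest to the members' median, level neighbours of Cst3 and Ctsc, and 12 fixed genes. Of the marker lists, sums or detection counts are given, with values for a few microglial markers chosen after they were seen. Members and lists were chosen with earlier results of these data known. Csta and Pgcp were not matched. Alternatives were DESeq2 1.42.0 size factors, library totals, no filter, added dispersion, other units and pseudocounts, and leaving out each library. The replicate 2 comparison and length classes were chosen after the values were seen. Of the microglial markers and the neighbours by level, 2 genes are not reported here.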

Additional observations from a re-analysis of the deposited data

How the results depend on the processing

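No paired analysis was possible because the files hold 1 group. With DESeq2 size factors, library totals or no filter on low counts, the homogeneity test still called 9 of the 10 genes, and 5483, 5505 and 6415 of all genes, against 5485. With the common dispersion added to counting error it called 0 of the 10 and 185 of all. Leaving out each replicate gave 4 to 9 of the 10 and 2498 to 3780 of all, lowest without replicate 2; only 2 libraries then enter the test. The share of counts was 3.24%, from 3.16 to 3.30% without 1 replicate, 3.25% over detected genes and 5.77% of summed FPKM. The median level was 9.38, from 9.35 to 9.41 without 1 replicate, 9.38 with a pseudocount of 0.1 or none, and 10.98 as log2(CPM + 1). The ratio of Cst3 to the cysteine proteases was 1.87, from 1.83 to 1.90 without 1 replicate, and 0.546 in estimated counts. The order kept all 9 neighbouring pairs in TPM and without each replicate, where a pair counts only if higher in every library. Neither setting could lose a pair. TPM scales all genes of a library alike, and each pair was already higher in all 3 libraries. In CPM 5 of 9 were kept: Ctsh over Ctsc was higher in 1 library of 3 (mean log2 difference 0.0087), and the log2 difference was -0.41 for Cst3 over Ctsd, -0.043 for Ctss over Lgmn and -0.89 for Ctsz over Ctsa. CPM does not divide by length, which sets those changes. Chosen after seeing the data, 9 of the 10 genes were highest in replicate 2 in FPKM and 7 in TPM. The lowest of the 10 genes in any library, Ctsc in replicate 2, had 5882 counts.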

Other observations

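Outside the 10 genes, the proton pump gene Atp6v0c, named after its values were seen, had 48.7, 11.4 and 18.0 FPKM in replicates 1, 2 and 3 (homogeneity adjusted p = 7.19e-92 by the chi-square test with Benjamini-Hochberg adjustment). Its estimated counts, 728.39, 155.32 and 256.24, were not whole. Replicate 1 was highest, unlike in 15 of the 21 tested genes of its list, which were highest in replicate 2, against 35.9% of all genes tested and 63% of those with a mean of at least 100 FPKM. Atp6v0c-ps2, by its symbol a pseudogene of Atp6v0c, had a mean of at least 100 FPKM, against 26.0 FPKM for Atp6v0c. Its CPM ratio of replicate 2 to the mean of the other libraries was 1.09, whereas Atp6v0c was lowest in replicate 2. The division of reads between Atp6v0c and Atp6v0c-ps2, and its part in this spread, was not tested. The values of Atp6v0c are therefore not read as the level of that gene.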
